A study of Homo sapiens with 6 samples.

Results

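Bone morphogenetic proteins (BMPs) are secreted ligands that act on pairs of serine/threonine kinase receptors, which phosphorylate the receptor-regulated SMADs. These SMADs enter the nucleus with SMAD4 and switch on target genes, among them the ID genes and the inhibitory SMAD genes. ID proteins are helix-loop-helix proteins that lack a DNA-binding region and hold bHLH transcription factors away from DNA. In the kidney, BMP signalling is known for its roles in nephron formation and in the tubule's response to injury.

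The genes described here were ID1, ID2, ID3, ID4, BMP2, BMP4, BMPR1A, BMPR2, SMAD6 and GREM1, chosen by name as 10 genes of this pathway. Every probe set whose platform annotation gave 1 of these symbols alone was taken, which found 18 probe sets for 9 genes, out of 22215 probe sets and 11963 genes tested. BMPR1A is not analysed here. A probe set that the annotation gives to both ID2 and ID2B was left out. Where a gene is given 1 value, it is that of its brightest probe set, the one with the highest mean over all 6 arrays.

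The cells were HK2, a line immortalised from epithelial cells of the human proximal tubule and grown in DMEM/F12 with insulin, transferrin and selenium. At 30% confluence they received either an siRNA against OCRL or a non-targeting siRNA, both with the reagent Dharmafect 4, and RNA was taken after 96 h. OCRL encodes an inositol polyphosphate phosphatase, and its loss causes Lowe syndrome. Each group held 3 arrays, which the labels tie to independent experiments, and precision is limited by this number. Both groups shared the line, medium and transfection reagent, and an effect of the OCRL siRNA reagent itself cannot be told apart from that of lower OCRL. Values are log2 intensities of probe sets, and fewer cells with a given RNA and less of it per cell cannot be told apart in them.

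The targeted mRNA was lower in every OCRL siRNA array. The brighter OCRL probe set read 9.49, 9.48 and 9.50 in control replicates 1 to 3 and 7.52, 7.49 and 7.40 in the knockdown. By that probe set 24.6% of the control level was left (log2 difference -2.02, SE 0.048, adjusted p = 1.24e-05, limma). Knockdown arrays kept 49.7% by 208316_s_at, the other OCRL probe set (limma, -1.01 on the log2 scale, SE 0.102, adjusted p = 7.64e-04). The measured depth of the knockdown thus depended on the probe set. Array medians ran from 7.23 to 7.24 in control and from 7.27 to 7.30 in knockdown arrays, so they did not overlap. Of 11 measured proximal tubule markers, LRP2, AQP1 and ANPEP lay under the lower quartile of probe sets on all 6 arrays, so these defining markers were dim in HK2 cells. Of the 11, DPP4, MME and ANPEP were called higher after the knockdown and PAX8 lower. Of 7 epithelial markers 5 were lower, where 10.5% of all genes were. Among those that did not pass, CDH1 lay under the lower quartile on all 6 arrays. The summed linear level of 7 endothelial markers was 251 to 289 in control and 272 to 281 in knockdown arrays, and that of 5 leukocyte markers 298 to 330 and 290 to 322. That of 8 fibroblast and mesangial markers was 1049 to 1210 in control and 880 to 899 in knockdown arrays, where LUM was lower. The part of these marker levels in the results that follow was not tested.

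The ID genes did not move as a group after the knockdown. ID2 rose 1.40-fold, ID3 fell 1.53-fold, and ID1 and ID4 did not pass the test. The inhibitory SMAD gene SMAD6 rose 1.36-fold by 1 of its 4 probe sets. BMP2 and BMP4, the receptor gene BMPR2 and the antagonist gene GREM1 did not pass by their brightest probe sets, and the dimmer BMP2 probe set was lower. In numbers of probe sets, 3 of 18 were higher, 2 lower and 13 did not pass at an adjusted p of 0.05 by limma. Of all probe sets 23.1% were called, 13.2% higher and 9.89% lower. By the brightest probe set, 2 of 9 genes were higher and 1 lower, where 26.0% of all genes were called, 15.5% higher and 10.5% lower. The groups of arrays did not overlap in 6 of the 18 probe sets and 4 of the 9 genes, against 40.7% of all probe sets and 44.9% of all genes. The number of these genes that changed was thus near the background of this comparison, and the account below is of single genes.

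**Figure D1:**
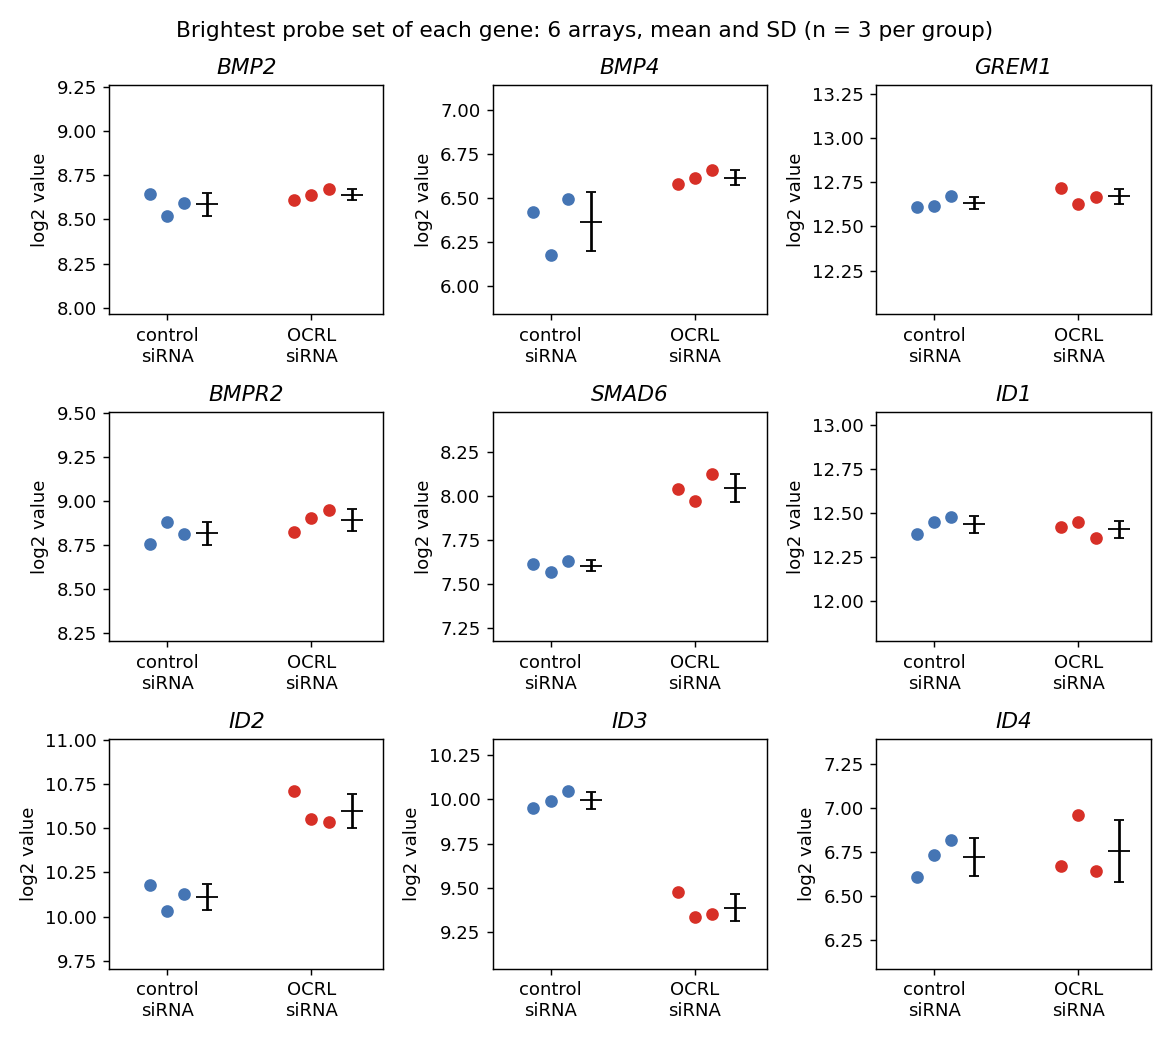
Log2 value (y axis, a span of 1.3 in every panel) of the brightest probe set of each of the 9 genes on the 3 control siRNA arrays (blue) and the 3 OCRL siRNA arrays (red), replicates 1 to 3 from left to right, with mean and SD in black. The groups stand apart for SMAD6, ID2, ID3 and BMP4, and overlap for BMP2, GREM1, BMPR2, ID1 and ID4.

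Among the ligands, the BMP2 probe sets gave different answers. BMP2 signals through the type I and type II BMP receptors and is an inducer of bone and of ID gene transcription. The brighter probe set, 205290_s_at, read 8.65, 8.52 and 8.59 in control cells and 8.61, 8.64 and 8.67 in knockdown cells. Its groups overlapped (log2 difference 0.05, SE 0.049, 95% interval -0.06 to 0.17, adjusted p = 0.495). The dimmer probe set, 205289_at, read 8.55, 8.40 and 8.29 in control cells and 8.17, 8.09 and 8.11 in knockdown cells, with all knockdown arrays below all control arrays. It fell by 0.29 on the log2 scale (SE 0.072, adjusted p = 0.0287). That call was lost without control replicate 2 (adjusted p = 0.0720) and without OCRL siRNA replicate 1 (0.0568), 2 (0.0867) or 3 (0.0881). Within each array, the log2 ratio of the dimmer to the brighter BMP2 probe set was 0.34 lower on average in the knockdown (SE 0.076). An exact permutation test, two-sided, gave p = 0.10, the smallest that 3 arrays against 3 allow, and 0.10 after adjustment over the 5 ratios examined. BMP2 is thus reported as measured differently by its 2 probe sets.

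BMP4, a ligand of the same subgroup that is needed for ureter and kidney development, had 1 probe set. It read 6.42, 6.18 and 6.50 in control cells and 6.58, 6.61 and 6.66 in knockdown cells. The knockdown arrays all lay above the control arrays, but the gap to control replicate 3 was small and control replicate 2 was lower than the rest. The log2 difference of 0.25 (SE 0.085, 95% interval 0.05 to 0.45) did not pass over all probe sets (unadjusted p = 0.0220, adjusted p = 0.0793, limma). Without control replicate 2 the difference was 0.16 (adjusted p = 0.121), and over all alternatives the adjusted p ran from 0.0554 to 0.198.

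GREM1 encodes gremlin, a secreted antagonist that binds BMP2 and BMP4 and keeps them from their receptors. Its brighter probe set read 12.61, 12.61 and 12.67 in control cells and 12.72, 12.63 and 12.67 in knockdown cells (log2 difference 0.04, SE 0.045, adjusted p = 0.617). The other read 12.60, 12.59 and 12.63 against 12.61, 12.59 and 12.61 (log2 difference -0.01, SE 0.039, adjusted p = 0.940). The groups overlapped in both. The 95% intervals of the differences were -0.07 to 0.15 and -0.10 to 0.09, so differences of the size seen in ID2 or ID3 lay outside both.

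BMPR2, the type II receptor that phosphorylates the type I receptor, had 2 probe sets with like differences. The brighter read 8.75, 8.88 and 8.81 in control cells and 8.83, 8.90 and 8.95 in knockdown cells. Its log2 difference was 0.08 (SE 0.055, 95% interval -0.05 to 0.21, adjusted p = 0.386), and that of the dimmer probe set was 0.09 (SE 0.058, 95% interval -0.05 to 0.22, adjusted p = 0.350). The groups overlapped in both probe sets.

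SMAD6 encodes an inhibitory SMAD that blocks BMP receptors and receptor-regulated SMADs and is itself a BMP target. Its brightest probe set, 207069_s_at, read 7.61, 7.57 and 7.63 in control cells and 8.04, 7.97 and 8.12 in knockdown cells. All knockdown arrays were above all control arrays, where the SD within a group was 0.031 in control and 0.077 in knockdown cells. SMAD6 rose by 0.44 by this probe set (SE 0.053, adjusted p = 0.00153, limma), the rise of rank 526 among 11963 genes. The other 3 probe sets did not follow. Probe set 209886_s_at read 6.66, 6.57 and 6.39 against 6.70, 6.50 and 6.31 (log2 difference -0.04, SE 0.111, adjusted p = 0.863). Probe sets 213565_s_at and 209887_at had log2 differences of 0.04 and -0.05, with adjusted p of 0.770 and 0.686, and 209887_at lay under the lower quartile on 4 of 6 arrays. The mean of the 4 probe sets gave a log2 difference of 0.10 with an adjusted p of 0.237, so the rise of SMAD6 rests on 1 probe set. The within-array ratio of 207069_s_at to 209886_s_at was 0.47 higher in the knockdown (SE 0.167, exact permutation p = 0.10 and 0.10 adjusted over the 5 ratios). The annotation ties 207069_s_at to the RefSeq mRNA of SMAD6 and both 209886_s_at and 209887_at to another deposited sequence.

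**Figure D2:**
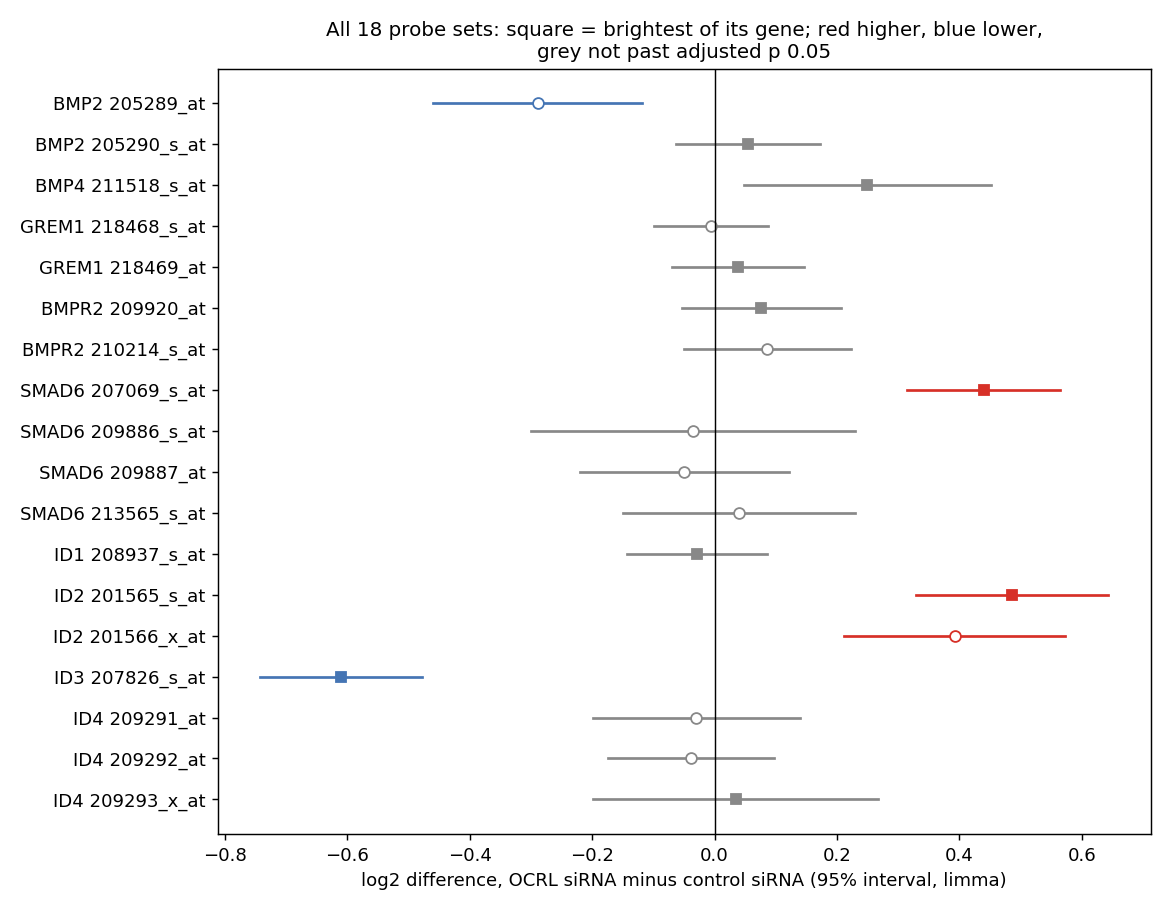
Log2 difference (x axis, OCRL siRNA minus control siRNA) of each of the 18 probe sets with its 95% interval from limma; squares mark the brightest probe set of a gene, red and blue those past an adjusted p of 0.05. Both ID2 probe sets lie above 0 and the ID3 probe set below it, whereas 1 of 4 SMAD6 and 1 of 2 BMP2 probe sets stand apart from the others of their gene.

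ID1, an ID gene often used as a readout of BMP signalling, had 1 bright probe set and no difference that passed. It read 12.38, 12.45 and 12.48 in control cells and 12.42, 12.45 and 12.36 in knockdown cells. The arrays of the groups were interleaved (log2 difference -0.03, SE 0.048, adjusted p = 0.731). The 95% interval was -0.14 to 0.09, so changes of the size seen in ID2 and ID3 lay outside it. Under the 15 alternatives run for it, the log2 difference of ID1 ran from -0.07 to -0.003 and never passed. Those that average or choose among the probe sets of a gene used the same values, since ID1 had 1.

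ID2, which binds E proteins and takes part in cell cycle control, rose by both of its probe sets. The brighter, 201565_s_at, read 10.18, 10.03 and 10.13 in control cells and 10.71, 10.55 and 10.53 in knockdown cells. The dimmer, 201566_x_at, read 7.74, 7.49 and 7.74 against 8.02, 8.07 and 8.07. All knockdown arrays lay above all control arrays in both. The log2 differences were 0.49 (SE 0.066, adjusted p = 0.00260) and 0.39 (SE 0.076, adjusted p = 0.0109). The suffixes of these probe sets mark probes that can match more than 1 transcript, and ID2B is a sequence related to ID2, so signal shared with it was not told apart. The probe set given to both ID2 and ID2B, left out of the counts, was also higher, and its groups did not overlap. Its log2 difference was 0.43 (SE 0.091, adjusted p = 0.0153, limma). The rise of ID2 held rank 441 among 11963 genes.

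ID3, which acts on the same bHLH partners and is known from lymphocytes and muscle, fell most among the 9 genes. Its single probe set read 9.95, 9.99 and 10.05 in control cells and 9.48, 9.33 and 9.35 in knockdown cells, so that every knockdown array was below every control array. The fall left 65.5% of the control level (log2 difference -0.61, SE 0.056, 95% interval -0.74 to -0.48, adjusted p = 5.00e-04, limma). It was the fall of rank 182 among 11963 genes and the only change of the 9 genes that was called with at least 1.5-fold, where 1.69% of all genes were lower by that measure. The fall passed under all 15 alternatives run for ID3, with log2 differences from -0.66 to -0.58. With a single probe set, the alternatives that average or choose among the probe sets of a gene used the same values for ID3. Its name also has the _s_at suffix, so signal from other transcripts was not told apart, and ID3 gave no value without such probe sets.

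ID4, best known from neural and mammary cells, was dim. Its probe sets 209291_at and 209292_at lay under the lower quartile on all 6 arrays, at 3.67 and 3.26 in control cells and 3.64 and 3.22 in knockdown cells. The brightest, 209293_x_at, read 6.61, 6.74 and 6.82 in control cells and 6.67, 6.96 and 6.64 in knockdown cells. The groups overlapped in all 3 probe sets, with adjusted p from 0.688 to 0.845, and the sign of the brightest changed in 4 of 12 alternatives.

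Set against each other within each array, ID2 and ID3 moved apart, which restates their opposite differences given above. The log2 ratio of ID2 to ID3, taken relative to the mean of the control arrays, was 0.11, -0.08 and -0.03 in control cells and 1.12, 1.10 and 1.07 in knockdown cells. It was thus higher in all 3 knockdown arrays by 1.10 on average (SE 0.059), where the SD within a group of 3 arrays was 0.0998 in control and 0.025 in knockdown cells. The ratio of ID2 to ID1 was higher by 0.51 (SE 0.083) and that of ID3 to ID1 lower, at -0.58 (SE 0.050). The groups did not overlap in any of these 3 ratios, and each had an exact permutation p of 0.10, two-sided, before and after adjustment over the 5 ratios.

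The promoters of ID1, ID2, ID3 and SMAD6 are shown because these genes share BMP-SMADs as known regulators but moved differently here. The sequences are the 250 bases before the annotated start, 5′ to 3′ on the gene's strand, from RefSeq on GRCh38.p14. Capitals mark GGCGCC and GGAGCC, forms of the GC-rich element bound by BMP-SMADs, GTCTG, the SMAD box, and the E-box CANNTG, each searched on both strands, so that GGCTCC and CAGAC are also marked.
ID1, chr20:31605039-31605288, plus strand: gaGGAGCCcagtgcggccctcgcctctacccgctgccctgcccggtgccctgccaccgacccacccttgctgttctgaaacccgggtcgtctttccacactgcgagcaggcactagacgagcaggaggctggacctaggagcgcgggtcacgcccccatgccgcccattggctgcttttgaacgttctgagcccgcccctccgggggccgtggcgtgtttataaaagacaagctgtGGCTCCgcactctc
ID2, chr2:8681806-8682055, plus strand: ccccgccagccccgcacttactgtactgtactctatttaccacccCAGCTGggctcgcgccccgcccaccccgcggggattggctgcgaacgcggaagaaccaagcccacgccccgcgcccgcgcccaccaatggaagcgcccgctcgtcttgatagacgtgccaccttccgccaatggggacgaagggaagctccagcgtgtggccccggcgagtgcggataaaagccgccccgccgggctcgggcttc
ID3, chr1:23559502-23559751, minus strand: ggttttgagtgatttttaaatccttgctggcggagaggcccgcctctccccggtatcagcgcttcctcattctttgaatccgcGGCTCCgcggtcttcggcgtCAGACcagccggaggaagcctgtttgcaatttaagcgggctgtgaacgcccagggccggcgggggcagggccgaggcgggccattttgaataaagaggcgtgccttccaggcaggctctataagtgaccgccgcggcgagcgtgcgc
SMAD6, chr15:66701986-66702235, plus strand: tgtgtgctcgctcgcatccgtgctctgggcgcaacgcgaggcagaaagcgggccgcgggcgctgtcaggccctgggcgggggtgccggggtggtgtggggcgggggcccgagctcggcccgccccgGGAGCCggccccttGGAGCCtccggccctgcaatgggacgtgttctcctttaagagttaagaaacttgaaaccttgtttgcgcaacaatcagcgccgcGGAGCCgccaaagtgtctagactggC
The ID1 promoter held 2 matches of GGAGCC, at -248 and -14, counted from the start. The ID2 promoter held 1 E-box, at -205, and no match of the other motifs in the window. The ID3 promoter held 1 GGAGCC match at -167 and 1 SMAD box at -147. The SMAD6 promoter held 3 GGAGCC matches, at -124, -110 and -26, and an E-box that spans the start, of which the last base shown is the first. The ID4 promoter, not shown because its gene was dim, held 2 GGAGCC matches, 1 SMAD box and 1 E-box. In windows of 300 bases, which add 50 bases after the start, 36.0% of 35116 RefSeq promoters held GGAGCC, 45.3% GTCTG, 19.2% GGCGCC and 68.7% CANNTG. ID2, which rose, and SMAD6, which rose by 1 of its 4 probe sets, thus shared no motif here but the E-box, which most promoters hold. A match is a description of letters and not a measured binding site, and motifs farther from the start were not searched.

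Of the 10 genes named at the outset, 9 had a promoter entry, with 12 windows in all, since BMP4 had 3 and GREM1 2. GGCGCC was in 3 of the 12, one each for BMPR2, BMP4 and GREM1. GGAGCC was in 6, GTCTG in 8 and CANNTG in 6.

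The wider pathway was read from 6 lists by role, chosen with earlier results of these data known. Their counts beside those of all genes are thus a description and not a test. In all, 67 of 79 genes were measured. Of these, 13 were higher, 12 lower and 42 did not pass, with a median log2 difference of -0.01 beside 0.0005 over all 11963 genes and 26.0% of all genes called. Scaling moved the split over all probe sets, of which 57.2% of those called were higher as deposited and 42.0% after median centring, in which each array's median is set equal. In the pathway lists the split was 13 higher and 12 lower as deposited, and 11 and 14 after centring.

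Secreted antagonists and modulators of BMPs were the list with the most falls. Of 12 measured genes 6 fell and 6, GREM1 among them, did not pass, where 10.5% of all genes were lower. Since the list was chosen with earlier results known, this share is not a test of the list. The list median was -0.25, and TLL1, among the 6 that fell, lay under the lower quartile on all 6 arrays. CRIM1, a membrane protein that tethers BMPs, fell by 0.69 (SE 0.043, adjusted p = 1.16e-04). FSTL3, a follistatin relative that binds activins and BMPs, fell by 0.53 (SE 0.072), and the chordin-like antagonist gene CHRDL1 by 0.36 (SE 0.050). BMP1 fell by 0.31 (SE 0.044), although its other 3 probe sets did not pass. BMP1 is a protease that cleaves chordin and procollagen, not a BMP ligand. The 6 falls and the list median thus pool antagonists with modulators that act otherwise, and are not a count of antagonists alone.

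Of 13 measured ligand genes, BMP10 alone was called, lower by a small margin and at a level close to the lower quartile (log2 difference -0.17, SE 0.041, adjusted p = 0.0242). Its call was lost without control replicate 2 or 3 and without any 1 of the OCRL siRNA replicates, at adjusted p of 0.0528 to 0.0765, and also under quantile normalisation (0.0677) and with trend and robust settings (0.175). The genes BMP3, BMP5, BMP6, BMP8B and GDF7 lay under the lower quartile on all arrays.

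Receptors and co-receptors went both ways, with 3 of 9 measured higher and 2 lower, where 15.5% of all genes were higher and 10.5% lower. With dim probe sets left out, 4 of 6 were higher and 0 lower. With each array left out in turn, 2 to 5 genes of the list were called. BMPR1B, called lower (adjusted p = 0.0468, limma), lay under the lower quartile on 5 of 6 arrays. The endothelial-type co-receptor gene ENG rose by 0.27 (SE 0.050, adjusted p = 0.00942), with 1 other probe set that did not pass, and the decoy receptor gene BAMBI, also a BMP target, by 0.29 (SE 0.058, adjusted p = 0.0120). NEO1, which encodes the co-receptor neogenin, rose by 0.26 (SE 0.059, adjusted p = 0.0190), and the type I receptor gene ACVRL1 fell by 0.27 (SE 0.067, adjusted p = 0.0274). NEO1 lost its call without control replicate 2 or 3 or OCRL siRNA replicate 1 or 2 (adjusted p 0.0528 to 0.0664), and ACVRL1 without control replicate 1 or 2 or OCRL siRNA replicate 1 or 3 (0.0702 to 0.0936).

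Among 15 genes of SMADs and their regulators, 4 rose and 2 fell, where 15.5% of all genes rose and 10.5% fell. The number that rose was 2 under quantile normalisation, with array medians centred, with the replicate number as a block, and without control replicate 2 or 3 or any 1 OCRL siRNA replicate, and 0 without probe sets whose name has the _s_at or _x_at suffix. SMURF1, a ubiquitin ligase that marks BMP-SMADs and receptors for destruction, fell by 0.61 (SE 0.043, adjusted p = 1.87e-04), and the inner nuclear membrane protein gene LEMD3, whose product binds SMADs, fell by 0.31 (SE 0.052). SKIL, a SMAD corepressor, rose by 0.51 (SE 0.051). The other 2 probe sets of both SMURF1 and SKIL did not pass. SMAD1, a receptor-regulated SMAD of the BMP branch, was higher by 0.17 (SE 0.048, adjusted p = 0.0443), a call lost without any 1 of the 6 arrays (adjusted p 0.0620 to 0.136), under quantile normalisation (0.0608) and with array medians centred (0.126).

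Of 16 genes on the list of BMP targets, which holds the ID genes and SMAD6, 5 rose, 1 fell and 10 did not pass. Of all genes 15.5% rose and 10.5% fell. Without probe sets whose name has the _s_at or _x_at suffix, 2 of 10 targets measured were called, both higher. Beside ID2, and SMAD6 by 1 of its 4 probe sets, the transcription factor genes GATA3 (log2 difference 0.50, SE 0.060) and HEY1 (0.53, SE 0.069) rose, as did BAMBI. Of the 2 other GATA3 probe sets, 1 was also called higher and 1 did not pass. The median was 0.04. Of 7 bHLH genes on which ID proteins act or with which they share partners, 4 rose, where 15.5% of all genes did: TWIST1 (0.77, SE 0.048), HEY1, the E protein gene TCF4 (0.46, SE 0.064) and HES1 (0.42, SE 0.045). The bHLH list, too, was chosen with earlier results of these data known. All 6 other probe sets of TCF4 were also called higher. The E protein genes TCF3 (-0.0001, adjusted p = 0.999) and TCF12 (-0.12, adjusted p = 0.203) did not pass.

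**Figure D3:**
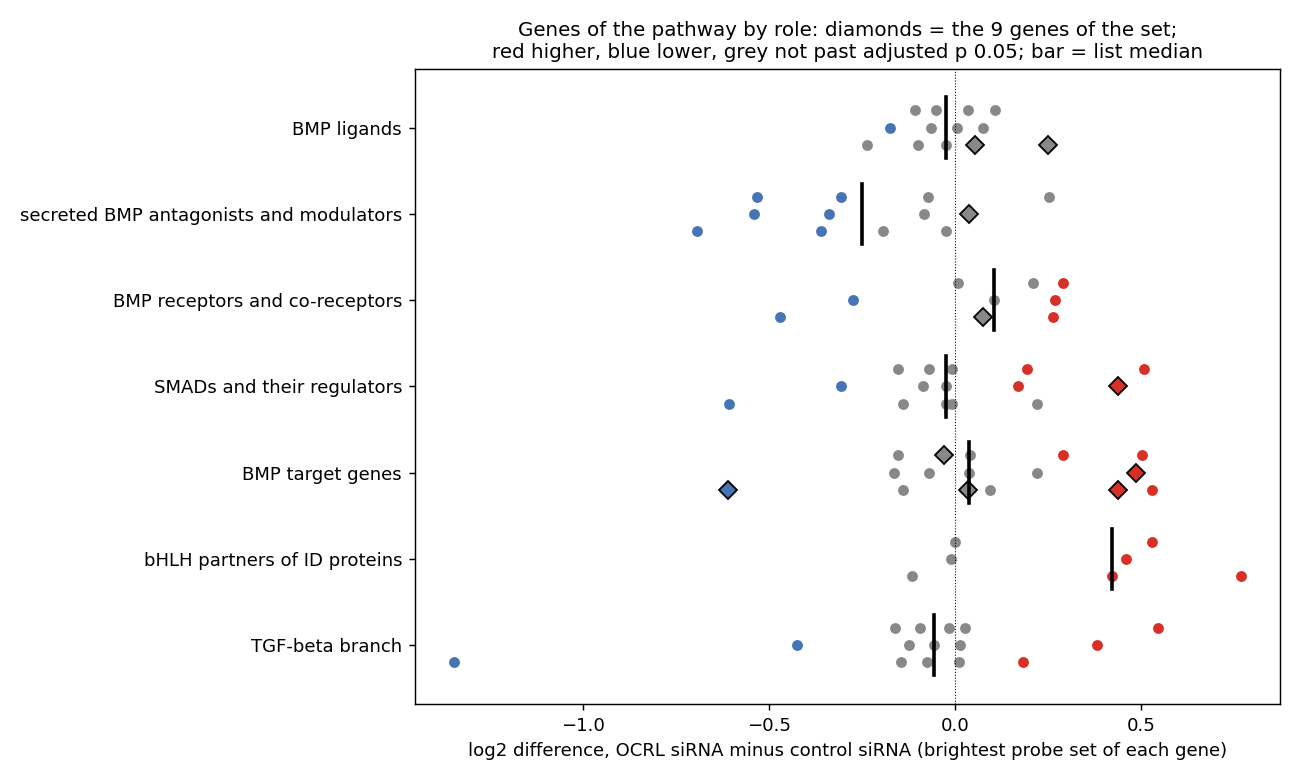
Log2 difference (x axis, OCRL siRNA minus control siRNA) of the brightest probe set of each measured gene, by role; diamonds are the 9 genes described above, red and blue mark an adjusted p under 0.05, and the bar is the list median. The list of antagonists and modulators has 6 of 12 genes lower and a median of -0.25, and the bHLH list 4 of 7 higher. A gene may stand in more than 1 list, and the lists were chosen with earlier results of these data known.

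**Figure D4:**
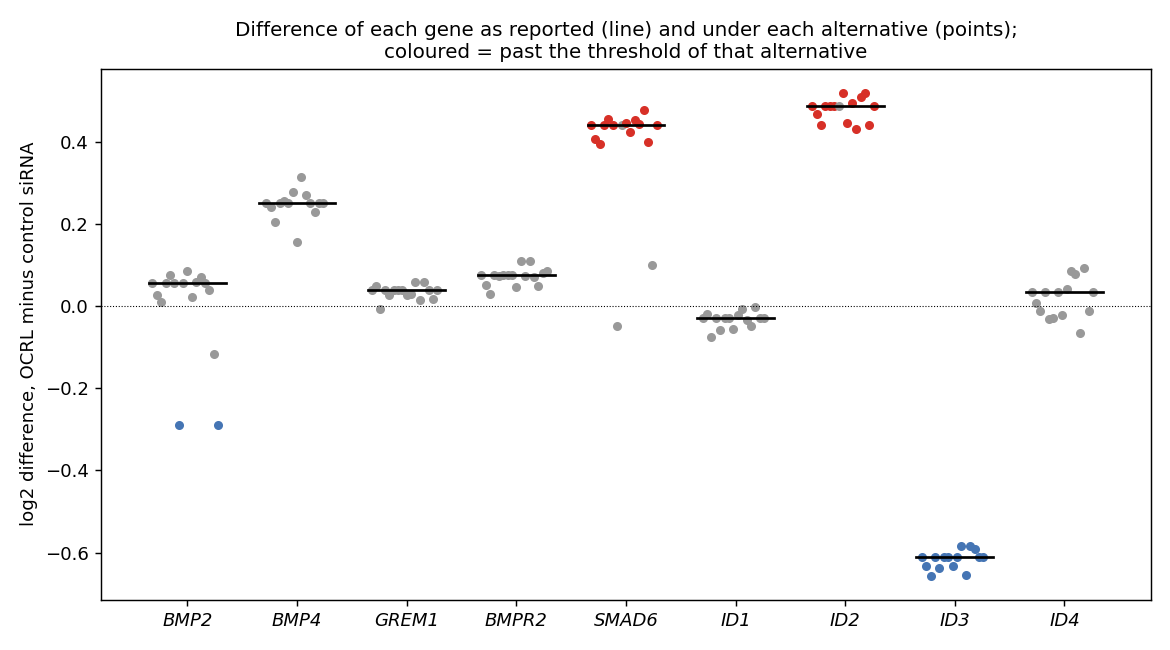
Log2 difference (y axis) of each of the 9 genes as reported (line) and under each processing alternative (points, coloured where past the threshold). ID3 stays between -0.66 and -0.58 and ID2 between 0.43 and 0.52, while BMP2 and SMAD6 depend on the probe set used, and 1 grey point of ID2 and 1 near the line of SMAD6 are the 1.5-fold minimum.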

How the data were processed

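RNA from 6 HK2 cultures was hybridised to single-colour Affymetrix arrays, 1 array per sample, per the labels' protocols. The authors deposited log2 intensities, 1 per probe set and array. The submitters' processing notes list affy and RMA; their versions are not given in the sources used here. RMA puts arrays on a common scale, which takes out any change common to most genes and shrinks differences at low signal.

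Of 22277 probe sets, 62 controls were left out. Names came from the platform annotation, with 1 symbol for 19064 probe sets, several for 1043 and none for 2108. Groups were compared over 22215 probe sets by lmFit and eBayes (limma 3.58.1, R 4.3.3; two-sided, Benjamini-Hochberg, threshold 0.05); SE and 95% intervals are moderated unless given for a ratio. The fit was tried on simulated data with independent normal errors and a smaller share of changed probe sets than was called here. It recovered 37.4% of planted changes of 1.25-fold and 72.4% of those of 1.5-fold, with 4.39% false calls. Real changes of these sizes can thus be missed. Of genes that are not among the 10, up to 4 called per list with the smallest p were named. ANPEP, DPP4, MME, PAX8, LUM, TCF3, TCF12, TLL1, BMPR1B and the dim ligand genes were named after their values were seen. Genes and lists were chosen with earlier results of these data known. Alternatives are given in the closing section. Figures were drawn with matplotlib 3.10.9.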

Additional observations from a re-analysis of the deposited data

How the results depend on the processing

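OCRL, ID2, ID3 and SMAD6 kept their direction and side of the threshold under quantile normalisation, median centring, trend and robust settings, array weights and with dim probe sets left out. In these settings the totals called among the set's probe sets and genes, the pathway genes and all probe sets stayed within 1.5 times those reported. The total for the ligand list went from 1 to 0 under quantile normalisation, with trend and robust settings and with dim probe sets left out. Without probe sets whose names end in _s_at or _x_at, 1 of 6 remaining probe sets and 1 of 5 genes of the set were called, 14 pathway genes and 2348 of 11813 probe sets, and OCRL, ID1, ID2, ID3 and BMP4 gave no value because all their probe sets were dropped. With a minimum of 1.5-fold, 1 of 18 probe sets, 1 of 9 genes, 4 pathway genes and 806 probe sets in all were called. The former tests fewer features and the latter adds a limit on size. Directions turned with the probe set used: BMP2 was at -0.29 and SMAD1 at -0.12 both without those suffixes and with the most variable probe set, SMAD6 was at -0.049 without them, and ENG at -0.16 with the most variable. By the mean of a gene's probe sets SMURF1 was at -0.17, BMP1 at -0.11 and ENG at 0.06. SKIL, GATA3 and HES1, at 0.09, 0.11 and 0.09, lost their calls without the suffixes. With each array left out in turn, 4 to 5 of 18 probe sets and 3 of 9 genes were called, with 19 to 26 pathway genes and 3576 to 4898 probe sets in all.

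Replicate numbers did not clearly pair the arrays: same-numbered deviations from the group means correlated at 0.14, 0.12 and -0.01, and 4 of 6 arrays correlated best with their own number. With the replicate number as a block, 5 of 18 probe sets, 3 of 9 genes and 23 pathway genes were called, and 4571 probe sets in all, and OCRL stayed at -2.02. BMP10 (adjusted p = 0.0630) and SMAD1 (0.0615) lost their calls under it.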

Other observations

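The TGF-beta branch, which signals through SMAD2 and SMAD3 and is often set against the BMP branch, had 15 of 16 listed genes measured. Of these 3 rose, 2 fell and 10 did not pass, where 15.5% of all genes rose and 10.5% fell. The list median log2 difference was -0.06. After median centring 2 rose and 4 fell, after quantile normalisation 3 and 3, and with trend and robust settings or with dim probe sets left out 3 rose and 4 fell. TGFB2, a ligand of this branch, fell 2.54-fold by its brightest probe set (log2 difference -1.35, SE 0.062, adjusted p = 4.73e-05, limma), and its other 3 probe sets were also called lower. The size depended on the probe set: without names ending in _s_at or _x_at the difference was -0.37 (adjusted p = 0.0293). The type II receptor gene TGFBR2 rose by 0.55 (SE 0.042), with 1 other probe set that did not pass, and the co-receptor gene TGFBR3 by 0.38 (SE 0.046). The matrix-associated target gene CCN2 fell by 0.42 (SE 0.074). A difference between the BMP and TGF-beta lists was not tested.

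The genes nearest to the called genes in profile were found by the Euclidean distance between log2 profiles over the 6 arrays, each centred on its own mean. For ID3 they were BRINP1, MED28 and L1CAM, at distances of 0.060, 0.065 and 0.089. For ID2 they were the cyclin gene CCNE2, FGGY and the clock gene PER2, at 0.081, 0.084 and 0.085. For SMAD6 they were GNG11, NARF and the replication factor gene RFC5, at 0.059, 0.063 and 0.069. These profiles share the arrays and the group difference, and the likeness is a description only.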
